A study of Mus musculus with 12 samples.

Results

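The genes described here encode the proteins of the cytosolic ribosome. They were taken by name from the gene table of the array: symbols that begin with Rpl or Rps and a digit, together with the stalk genes, leaving out the Rps6k kinases, pseudogenes and paralogs named with an l1 or l2 ending. Only probe sets that name 1 gene were used, and each gene was represented by its brightest such probe set. This gave 47 genes of the 18193 with a probe set naming 1 gene. Of these, 22 encode proteins of the large subunit and 20 proteins of the small subunit. A further 4 are paralogs (Rpl39l, Rpl3l, Rps27l and Rps4l), and Rps19bp1, which encodes a protein that binds Rps19 and is not itself part of the ribosome, was taken by the letters of its symbol. Ribosomal protein genes that the table gives no single-gene probe set, such as Rplp1 and Rpl5, were not analysed here.

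The study compared CD4+ T cells of mice in 2 settings with Affymetrix Mouse Genome 430 2.0 arrays, 3 arrays in each of 4 groups, all from females. In the first setting the cells came from 40-week-old SKG mice, which carry a mutated Zap70 kinase on the BALB/c background and develop autoimmune arthritis, and from BALB/c mice of the same age. These cells were stimulated with PMA and ionomycin, which bypass the T cell receptor, and were labelled FR4- CD4+ from lymph node; FR4 is folate receptor 4, high on regulatory T cells. BALB replicate 1 differs: it is labelled CD4+, without the FR4 sort, and comes from spleen and lymph node. In the second setting, the cells were taken from spleens of 7-week-old recipients 7 days after transfer. CD4 T cells of IFN-γ-/- BALB/c mice were given to RAG2-/- BALB/c mice, and CD4 T cells of IL-6-/- BALB/c mice to IL-6-/- RAG2-/- BALB/c mice; no stimulation is labelled for these arrays. RAG2-/- hosts lack T and B cells of their own but keep their other blood cells. Both transfer groups therefore lack RAG2 in the host, and each carries its own cytokine deletion, so neither is a wild-type control. The labels do not say whether the arrays of a group come from separate animals, so the p-values below measure the spread between arrays.

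The ribosome translates every cellular mRNA, the small subunit reading the codons and the large subunit joining the amino acids. Its proteins are made in nearly equal amounts, and in vertebrates their mRNAs begin with a cytosine and a run of pyrimidines, the 5′ terminal oligopyrimidine (TOP) tract, through which mTOR signalling controls their translation rather than their amount. Activated T cells enlarge and make more ribosomes before they divide, with Myc and mTOR among the known regulators.

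The start sites of several members show this tract. RefSeq start sites on GRCm38.p6 were matched by gene identifier for 41 of the 47 members, 49 starts in all. Rpl7, Rpl8, Rps14, Rps20, Rps29 and Rps4l had none. Each window below runs from 15 bases before the start to 15 bases from it on, so the annotated first base of the transcript is the 16th letter, and the strand of the gene is given. Capitals mark the longest run of C and T. The first 6 are shown because they hold a tract of this kind at the start. The last pair, Rps15 and Rpl39l, are examples without a run of 8 or more. Both are described in the results below, and neither was called in the main fit. Whether the tract goes with a difference between groups was not tested.
Rps6, chr4:86857353-86857382 (-): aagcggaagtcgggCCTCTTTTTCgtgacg
Rps18, chr17:33955651-33955680 (-): tacgtcacttccgCTCTCTCTTCCacagga
Rpl38, chr11:114668565-114668594 (+): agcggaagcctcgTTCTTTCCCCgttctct
Rpl14, chr9:120571502-120571531 (+): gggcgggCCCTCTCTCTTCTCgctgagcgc
Rplp2, chr7:141447636-141447665 (+): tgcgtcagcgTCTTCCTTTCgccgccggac
Rps10, chr17:27635230-27635259 (-): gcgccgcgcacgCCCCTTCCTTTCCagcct
Rps15, chr10:80292416-80292445 (+): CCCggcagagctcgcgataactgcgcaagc
Rpl39l, chr16:10170213-10170242 (+): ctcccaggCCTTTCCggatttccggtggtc

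A run of at least 8 C or T bases stood in the window at 18 of the 49 member starts (36.7%), against 12% of all 32851 starts in the table. A C at the annotated start followed by 4 further C or T bases was found at 8 of the 49 starts (16.3%), against 2.51% of all starts. Only the strand of the transcript was searched, and the 2 patterns overlap. A window without such a run says only that these letters are not within 15 bases of the annotated start.

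Levels are given as log2 of the deposited intensity plus 16, after quantile normalization of the 12 arrays. A probe set with an intensity of 0 thus has a level of about 4. Brightness depends on the probes as well as on the transcript, so no member's level is set against another's, and differences are read within a member. The probe sets of most members were among the brightest of the array. The mean level over 12 arrays was 12 or more for 33 of the 47, and each of these lay at or above the 99.2nd percentile of all probe sets. On each array the median member of these 33 had between 63.5% and 70.2% of the intensity of the brightest probe set, and the brightest member between 87.2% and 100%. How far differences are compressed so close to the top of the scale was not tested.

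The array values of the whole data set bear on what follows. Array medians of the deposited intensities ran from 15.7 to 27.6, and the 3′ to 5′ ratio of the actin control probe sets, a measure of RNA and labelling quality, from 1.60 to 5.13, highest in replicate 3 of every group. The same ratio for Gapdh ran from 2.42 to 9.33 and was highest in replicate 3 of the transfer groups only; in replicate 3 it was 2.86 in BALB cells, below replicates 1 and 2 (3.28 and 3.03), and 2.90 in SKG cells, between them (3.03 and 2.57). Ifng stood at 9.59, 8.86 and 9.77 in the IFN-γ-/- transfer arrays and between 12.32 and 13.57 in the other 9. Il6 stood at 5.66, 5.84 and 8.02 in the arrays labelled IL-6-/- and at 4.55, 4.77 and 6.83 in the IFN-γ-/- arrays, so it was not lower under the label; whether its probes lie in the deleted part is not given in the sources used here, so this gene does not check that label. All 6 CD4 T cell markers on the array were above the floor for testing in the mean, Cd4 itself between 6.59 and 8.77. In cell preparations of this kind fewer cells of a type and less RNA per cell cannot be told apart.

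Before normalization the median intensity of the 47 members ran from 6968 to 14247 over the 12 arrays, 2.04-fold, and the median level of the 33 bright members from 13.10 to 13.95. After quantile normalization the bright members spanned little. For these 33, all array levels lay between 12.32 and 14.03, and the span of a member over the 12 arrays had a median of 0.26, from 0.069 for Rps7 to 0.64 for Rpl37a. Rps7, a small subunit protein that also binds the p53 inhibitor Mdm2, had group means of 13.55 in BALB, 13.58 in SKG, 13.54 in IL-6-/- transfer and 13.54 in IFN-γ-/- transfer cells, each with an SD of 0.01 (n = 3). Rps14, a protein of the small subunit platform, spanned 0.094. The median SD between the arrays of a group was between 0.055 and 0.086 for the tested members, against 0.21 to 0.26 for all genes tested in both comparisons.

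The 3 members below the floor for testing, Rpl3l, Rps4l and Rps16, lay between 4.03 and 4.65 on every array. Rpl3l, the form of Rpl3 known from heart and skeletal muscle, had a group mean of 4.26 ± 0.31 (SD, n = 3) in BALB and 4.23 ± 0.09 in SKG cells. Rps4l had group means between 4.17 and 4.36. Rps16 encodes a core protein of the small subunit, and its single usable probe set had a mean level of 4.08, at the 0.33rd percentile of all probe sets, so this probe set gives no measure of it here. The largest spans belonged to members outside the bright set: 8 members spanned more than 1, namely Rpl12, Rpl14, Rpl27a, Rpl37, Rpl39, Rpl39l, Rps27 and Rps27l.

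**Figure D1:**
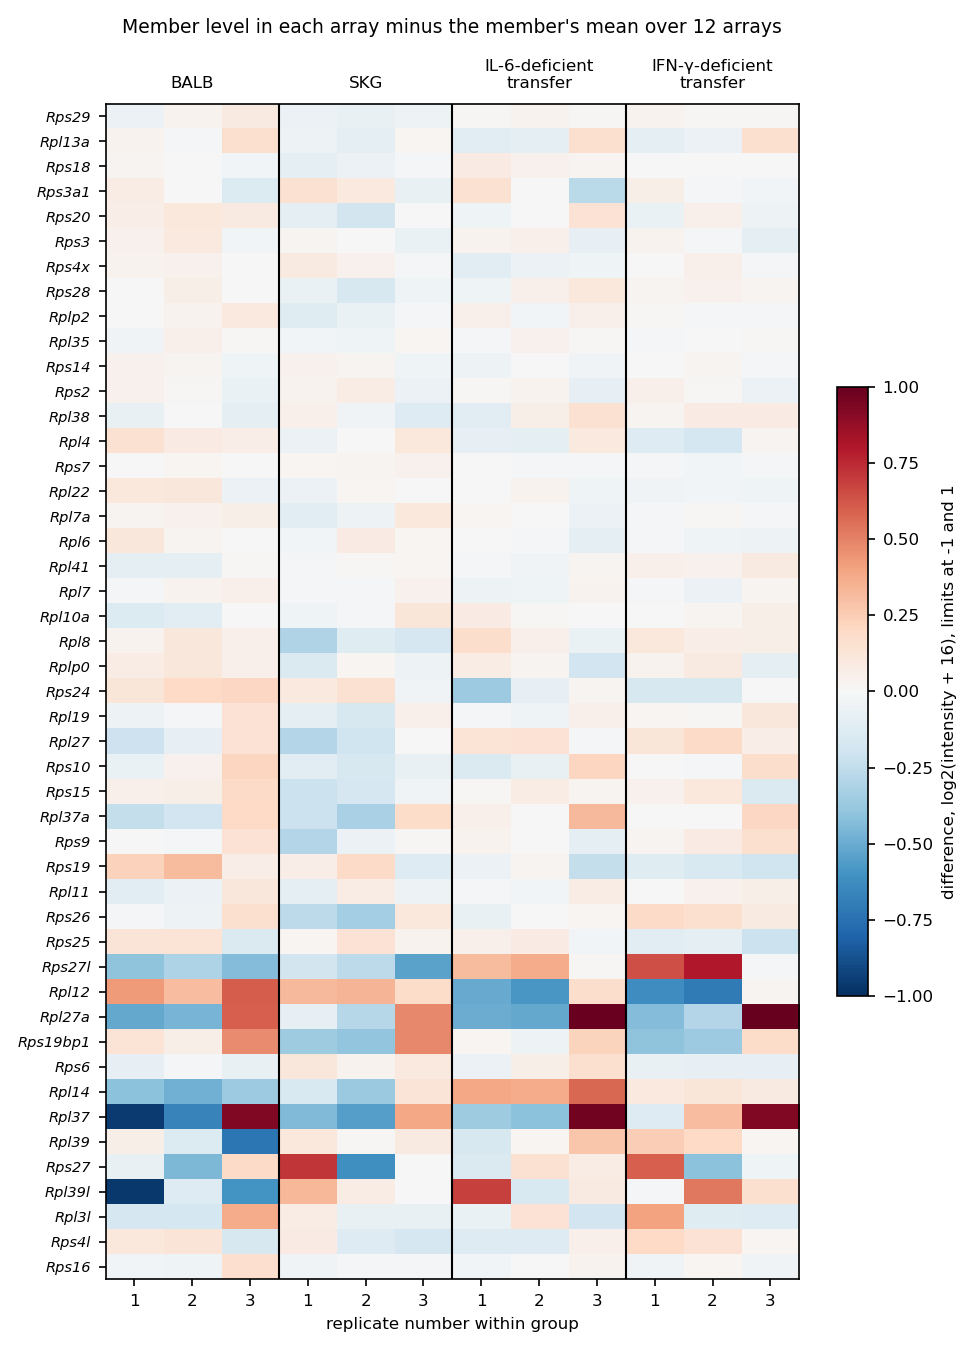
Each row is a member, ordered from the brightest probe set (top) to the dimmest, each column an array, and the colour is the member's level in that array minus its mean over the 12 arrays, in log2 units with colours limited at -1 and 1. The upper rows are pale throughout, while Rpl27a and Rpl37 are high in replicate 3 of every group and Rps27l and Rpl12 differ between the 2 settings.

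SKG cells were compared with BALB cells, which asks how stimulated CD4 T cells of the arthritis-prone strain differ from those of its background strain. Of the 44 members tested, 0 were called higher and 1, Rpl8, was called lower (limma, Benjamini-Hochberg adjusted p under 0.05). Among all 12079 genes tested, 15.8% were called higher and 11.8% lower. At an unadjusted p under 0.05, 1 member was higher and 3 were lower, beside 22.4% and 16.5% of all genes. Without overlap between the 3 SKG and 3 BALB arrays, 2 members were higher and 7 lower, against 24.9% and 18.4% of all genes. The median member difference was -0.05 on the log2 scale, with 17 members positive and 27 negative, and the median of all genes tested was 0.06. Without normalization 7 members were positive, with a median of -0.11, and with trimmed mean scaling 17, with a median of -0.02. The difference was under 0.2 in size for 38 of the 44 members (86.4%) and for 31.3% of all genes.

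The intervals of these differences were narrow. The 95% interval lay within a 1.5-fold change in either direction for 37 of 44 members (84.1%), against 18.7% of all genes tested. These intervals are those of the brightest probe set of each gene. The 7 with wider intervals were Rpl14, Rpl27a, Rpl37, Rpl39, Rpl39l, Rps19bp1 and Rps27, all at a mean level under 10. The median standard error was 0.078 for the members and 0.21 for all genes. Brightness moves with this precision: for the 382 tested genes with a mean level of 12 or more, a bound chosen after the values were seen, the median standard error was 0.097. Of these bright genes 12.3% were called higher and 12.3% lower. Their median absolute difference was 0.17, against 0.10 for the members and 0.35 for all genes. The 382 include 33 members.

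**Figure D2:**
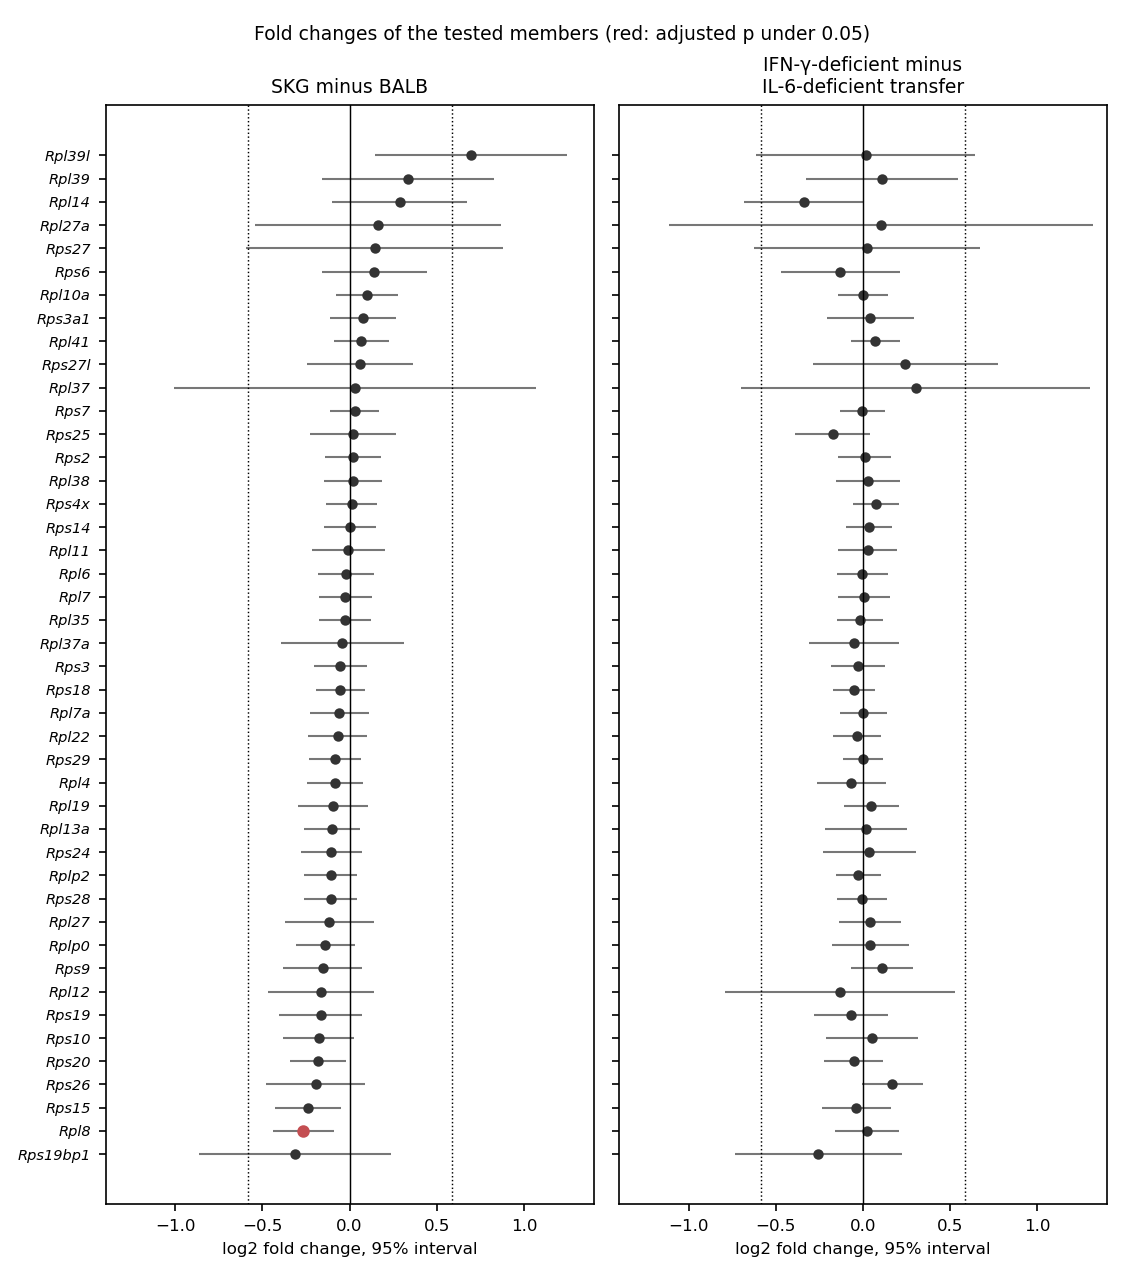
Points are log2 fold changes of the 44 tested members with 95% intervals, for SKG minus BALB (left) and IFN-γ-/- minus IL-6-/- transfer (right), in the order of the left panel; dotted lines mark a 1.5-fold change and red an adjusted p under 0.05. Most points lie near 0 with short intervals, Rpl8 is the only red point, and Rpl37 has the widest interval on the left and Rpl27a on the right.

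Among the large subunit genes, 0 of 22 were called higher and 1 lower, with a median difference of -0.03. Rpl8 encodes a core protein (uL2) near the peptidyl transferase centre. Its level was 13.30, 13.38 and 13.32 in BALB cells and 12.96, 13.14 and 13.10 in SKG cells. All 3 SKG arrays were below all 3 BALB arrays, and the difference was -0.27 ± 0.077 (SE), or 16.8% less, with a limma adjusted p of 0.033 and of 0.018 with the replicate number as a block. In the transfer groups the same probe set read 13.44, 13.32 and 13.20 in IL-6-/- and 13.37, 13.33 and 13.33 in IFN-γ-/- cells, so the SKG arrays were the lowest 3 of the 12. The call of Rpl8 did not hold without BALB replicate 1, whose cells were not sorted for FR4 (adjusted p = 0.084), without BALB replicate 2 (0.12), without SKG replicate 1 (0.13) or without SKG replicate 2 (0.057); under other processing it was lost with no filter (0.11), no normalization (0.53), trimmed mean scaling (0.20) and no intensity trend (0.20).

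The stalk of the large subunit, which recruits the elongation factors, was represented by Rplp0 and Rplp2. Rplp0 read 13.33, 13.37 and 13.30 in BALB and 13.11, 13.27 and 13.20 in SKG cells, groups that did not overlap, with a difference of -0.14 and an adjusted p of 0.20. Rplp2 read 13.64, 13.67 and 13.73 in BALB and 13.52, 13.57 and 13.63 in SKG cells, also without overlap, with a difference of -0.11 and an adjusted p of 0.28. Neither passed the test.

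The other large subunit genes named by their roles lay closer to 0 or were measured less precisely. Rpl11, part of the 5S particle that binds Mdm2, differed by -0.01 (95% interval -0.22 to 0.20), and Rpl35, at the exit of the peptide tunnel, by -0.03 (-0.17 to 0.12). Rpl22, which is needed for the development of αβ T cells in the mouse, differed by -0.07 (-0.24 to 0.10). Rpl13a, known for a role in silencing interferon-γ-induced transcripts in myeloid cells, differed by -0.10, and Rpl38, which affects translation of Hox mRNAs in the embryo, by 0.02. Rpl14 read 8.47, 8.39 and 8.51 in BALB and 8.73, 8.50 and 9.01 in SKG cells; the groups overlapped and the difference of 0.29 had an adjusted p of 0.25. Rpl39 and Rpl27a differed by 0.34 and 0.16, with adjusted p-values of 0.30 and 0.75.

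Among the small subunit genes, 0 of 19 were called in either direction, with a median of -0.05. Rps15, a protein of the subunit head near the decoding site, read 13.07, 13.07 and 13.21 in BALB and 12.80, 12.85 and 12.98 in SKG cells. The SKG arrays were all lower, by 0.24 on average (difference -0.24 ± 0.084), and the adjusted p was 0.065. With the replicate number as a block it was 0.027, so that 2 members, Rpl8 and Rps15, were then called lower, against 14.6% of all genes under that fit. Rps20, another head protein, read 13.75, 13.79 and 13.77 in BALB and 13.58, 13.49 and 13.68 in SKG cells, with a difference of -0.18 and an adjusted p of 0.089. Its 2 bright probe sets, with mean levels of 13.68 and 13.58, gave -0.18 and -0.13; both are of the x_at kind, which can bind related transcripts. Without the x_at and s_at kinds the gene was read by a dim probe set at 5.87, which gave 0.12.

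Rps10 and Rps28 were also lower in SKG cells without overlap, by 0.18 and 0.11, with adjusted p-values of 0.18 and 0.28. Rps6, the substrate of the S6 kinases, read 9.11, 9.18 and 9.12 in BALB and 9.31, 9.23 and 9.30 in SKG cells. The SKG values were the higher ones without overlap, but the difference of 0.14 had an adjusted p of 0.48. Rps19, Rps24 and Rps26 were listed by role as examples of the genes mutated in Diamond-Blackfan anaemia, not as all of them. They differed by -0.16, -0.11 and -0.20, with adjusted p-values of 0.29, 0.35 and 0.29. Over its 6 probe sets above the floor, Rps24 ran from -0.59 to -0.11, and Rps10, also with 6, from -0.59 to -0.18. In both genes the brightest probe set, the one tested, gave the smallest difference. Of the other members listed for decoding and the mRNA channel, Rps2 differed by 0.02, Rps3 by -0.05 and Rps14 by 0.00, while Rps9, which lines the mRNA entry with Rps2 and Rps3, differed by -0.15 (adjusted p = 0.30). Rps4x, the X-linked form of Rps4, differed by 0.01, and Rps29 and Rps18 were among the members with intervals inside a 1.5-fold change.

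Rpl39l and Rps19bp1 were the members at the ends of the range. Rpl39l, the form of Rpl39 best known from male germ cells, read 5.12, 5.95 and 5.49 in BALB and 6.42, 6.16 and 6.08 in SKG cells. All SKG arrays were above all BALB arrays, and the difference was 0.70 ± 0.24 with an adjusted p of 0.063. The size depends on the constant added before the logarithm, being 0.97 with 1 and 0.37 with 64. Without BALB replicate 2 the adjusted p was 0.032. Rps27l, a p53-induced paralog of Rps27, differed by 0.06. Rps19bp1, known as an activator of Sirt1, read 9.57, 9.49 and 9.90 in BALB and 9.07, 9.04 and 9.91 in SKG cells: replicates 1 and 2 were lower in SKG cells and replicate 3 was not. Its difference of -0.31 had an adjusted p of 0.39.

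Replicate 3 of SKG cells mattered to the count. Without it, 5 of 44 members were called lower, Rpl8, Rps15, Rps19bp1, Rps20 and Rps26, beside 14.2% of all genes under that fit. The same 5 were called when only replicates 1 and 2 of each group were fitted, an alternative added after the values were seen, beside 18.2% of all genes. Markers of other cell types also differed between these groups. Cd8b1, a CD8 T cell marker, was lower in SKG cells, at 7.92, 7.96 and 7.95 in BALB and 4.78, 4.89 and 6.64 in SKG cells. Cd8a, the other CD8 marker, read 4.76, 5.11 and 4.33 in BALB and 5.06, 5.72 and 5.85 in SKG cells, a difference of 0.81 in the opposite direction with an adjusted p of 0.072. The summed intensity of the 2 CD8 markers was 217 to 286 in BALB and 25.3 to 142.6 in SKG cells, and that of the 4 plasma cell markers 496 to 1244 and 1354 to 2292. Of these 4, 3 had a positive difference and 2 were called higher, beside 15.8% of all genes. Prdm1 read 8.49, 8.43 and 8.47 in BALB and 10.58, 10.72 and 9.28 in SKG cells. It was also high in the transfer arrays, at 9.70 to 10.22. Jchain overlapped, at 8.37, 7.48 and 9.33 in BALB and 9.56, 9.76 and 8.85 in SKG cells. Sdc1 went the other way without overlap and was not called. It read 5.95, 5.51 and 5.44 in BALB and 4.67, 5.02 and 5.29 in SKG cells. Of the 7 B cell markers 5 were tested here, Cd79b and Pax5 being below the floor. All 5 had a positive difference (median 0.37) and 0 were called, 2 of them having an unadjusted p under 0.05, and the sum over all 7 was 58.9 to 336 in BALB and 205 to 249 in SKG cells. Their part in the differences of the members was not tested.

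**Figure D3:**
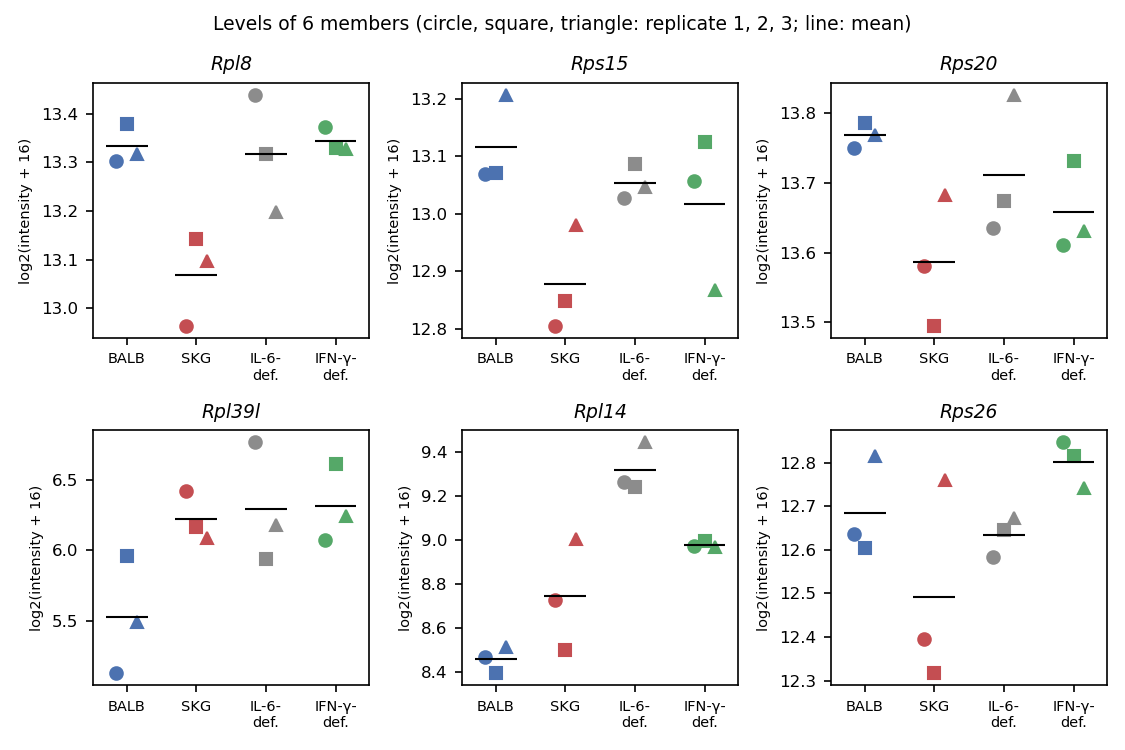
Levels of 6 members by group, as log2(intensity + 16), with 1 symbol per array (circle, square and triangle for replicates 1, 2 and 3), a line at the group mean and an axis range set for each gene. Rpl8 and Rps15 lie lower in all 3 SKG arrays than in all 3 BALB arrays, Rpl39l lies higher, and Rpl14 is higher in IL-6-/- than in IFN-γ-/- transfer cells.

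IFN-γ-/- transfer cells were compared with IL-6-/- transfer cells, the comparison between 2 cytokine deletions in CD4 T cells placed in RAG2-/- hosts. The hosts of the IL-6-/- cells lacked IL-6 as well, so donor and host genotype differ together and cannot be told apart. No member was called: 0 of 44 were higher and 0 lower, with limma adjusted p-values that round to 1.0. At an unadjusted p under 0.05 the counts were also 0 and 0, beside 2.52% and 1.84% of all genes. Few genes were called here at all, 0.0653% higher and 0.0489% lower of 12259. The arrays did not overlap for 3 members in the higher direction and 4 in the lower, against 5.41% and 4.54% of all genes. The median member difference was 0.01, with 26 positive and 18 negative, and its sign turned to -0.06 without normalization. The 95% interval lay within a 1.5-fold change for 36 of 44 members (81.8%), against 30.3% of all genes.

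Among the tested members the largest difference in this comparison was that of Rpl14, which read 9.26, 9.24 and 9.45 in IL-6-/- and 8.97, 9.0 and 8.97 in IFN-γ-/- cells. The groups did not overlap, and the difference was -0.34 ± 0.15, with an unadjusted p of 0.052 and an adjusted p of 0.18 with the replicate number as a block. Rps25, which is needed by several viral internal ribosome entry sites, read 11.92, 11.95 and 11.84 in IL-6-/- and 11.76, 11.77 and 11.65 in IFN-γ-/- cells, a difference of -0.17. Rps26 was on the higher side without overlap, at 12.58, 12.65 and 12.67 in IL-6-/- and 12.85, 12.82 and 12.74 in IFN-γ-/- cells, a difference of 0.17 (95% interval -0.01 to 0.34).

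The other members without overlap were Rps4x and Rpl41 in the higher direction, by 0.08 and 0.07, and Rps18 and Rps6 in the lower, by 0.05 and 0.13. Rpl37 and Rps27l had larger mean differences, 0.30 and 0.24, but their arrays overlapped, with intervals of -0.70 to 1.30 and -0.29 to 0.77. Rps19bp1 and Rpl12 differed by -0.26 and -0.13. The stalk genes Rplp0 and Rplp2 differed by 0.04 and -0.03, Rpl11 by 0.03, and Rpl22 by -0.03. Rpl8 and Rps15, the lower members of SKG cells, differed by 0.02 and -0.04 here.

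The difference between the 2 comparisons was tested in a fit of all 12 arrays. Of 11431 genes tested, 8.81% were called in either direction, and 0 of the 44 members were. At an unadjusted p under 0.05 there were 3 members, beside 23.6% of all genes: Rpl14 (0.63 ± 0.22, adjusted p = 0.10), Rpl8 (-0.29 ± 0.11, adjusted p = 0.12) and Rps26 (-0.36 ± 0.16, adjusted p = 0.18), where a positive value means a higher fold change in SKG against BALB than in IFN-γ-/- against IL-6-/- transfer. With the replicate number as a block, these 3 had adjusted p-values of 0.019, 0.026 and 0.019 and were the members called, beside 27.2% of all genes under that fit. The next members were Rps9, Rpl39l and Rps15, at adjusted p-values of 0.24, 0.30 and 0.34.

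Other genes of the translation machinery were followed as lists. The mitochondrial ribosome is built from other nuclear genes and translates only the mitochondrial mRNAs. Of 76 mitochondrial ribosomal protein genes tested, 27 were called higher in SKG cells and 1, Mrps34, lower (limma, adjusted p under 0.05), beside 15.8% and 11.8% of all genes. Their median difference was 0.34. Mrpl23 rose by 1.44 ± 0.17 (adjusted p = 0.00075), Mrpl52 by 1.46 ± 0.21 (0.0015) and Mrpl51 by 1.04 ± 0.13 (0.00077). In the transfer comparison 0 of the 76 were called in either direction, beside 0.0653% higher and 0.0489% lower of all genes. The median absolute difference was 0.08 for the 76 and 0.14 for all genes. Without normalization the count higher in SKG cells was 14, beside 1130 of all 12076 genes, and the median of the 76 was 0.28.

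Genes of ribosome biogenesis, which process and assemble the rRNA and proteins in the nucleolus, were called 8 higher and 4 lower of 60 in SKG cells, shares no larger than the 15.8% and 11.8% of all genes. Utp14a and Utp20, parts of the small subunit processome, were higher by 0.89 and 0.61. The acetyltransferase gene Nat10 was higher by 0.72 and the small subunit assembly factor gene Pno1 by 0.65, while the kinase gene Riok1, which acts late in small subunit maturation, was lower by 0.50. Of the initiation factors 1 of 32 was higher, Eif4g3 by 0.66, and 1 lower, Eif5b by 0.43; with the replicate block the counts were 5 and 3, beside 19.9% and 14.6% of all genes. Of 16 elongation factors and other genes with TOP mRNAs, Nap1l1 was higher by 0.49 and Hnrnpa1 lower by 0.35; with the block 1 was higher and 2 were lower.

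Of 30 regulators of ribosome production and translation, 2 were called higher and 8 lower, beside 15.8% and 11.8% of all genes; over the whole list 16 differences were positive and 14 negative, with a median of 0.03. Eif4ebp1, the translation repressor that mTOR phosphorylates, was higher by 1.49 ± 0.20 (adjusted p = 0.0011). Myc, a driver of ribosomal genes, was lower by 0.55 ± 0.12 (0.011), and Mxd1, which encodes an antagonist of Myc, was lower by 1.60 ± 0.21 (0.0012). Sesn1 and Sesn3, which encode sestrins that restrain mTORC1 when amino acids are scarce, were lower by 1.13 and 1.11, and the stress kinase gene Eif2ak3 by 1.09. The 4 ribosome parts outside the naming rule, Rpsa, Fau, Rpl22l1 and Rpl7l1, gave 0 calls in either comparison, with differences of -0.07, -0.15, -0.16 and 0.23 in SKG cells. In the transfer comparison 0 genes of these lists were called, beside 0.0653% higher and 0.0489% lower of all genes. With the replicate block there was 1, the regulator Sesn2, lower beside 0.922% of all genes.

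**Figure D4:**
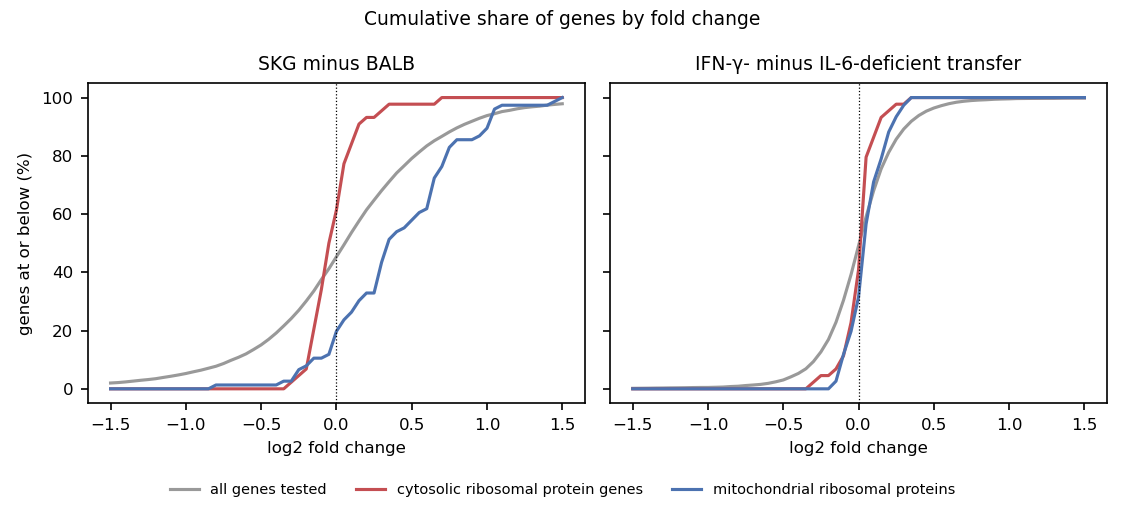
Cumulative percentage of genes at or below each log2 fold change, for the 44 tested cytosolic ribosomal protein genes (red), 76 mitochondrial ribosomal protein genes (blue) and all genes tested (grey), in SKG minus BALB (left) and IFN-γ-/- minus IL-6-/- transfer (right). The red curve is steep around 0 in both panels, and the blue curve lies to the right of 0 in the left panel, with medians of -0.05 and 0.34.

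Some members differed more between replicate numbers than between groups. In replicate 3, 9 of 44 members were at their highest in all 4 groups (20.5%) and 5 at their lowest (11.4%), against 9.51% and 12.7% of all genes tested in both comparisons. Rpl27a read 9.15, 9.19 and 10.25 in BALB, 9.58, 9.37 and 10.14 in SKG, 9.16, 9.14 and 10.64 in IL-6-/- and 9.23, 9.36 and 10.67 in IFN-γ-/- cells. Replicate 3 was thus above every replicate 1 and 2 array of all groups. Rpl37 in replicate 3 exceeded the mean of replicates 1 and 2 by 0.84 to 1.74 in the 4 groups, and Rps19bp1 by 0.24 to 0.85. The same order held for Rpl37a (0.21 to 0.45), Rps10, Rpl13a, Rpl19, Rpl7 and Rpl41, whose smallest shifts were between 0.02 and 0.21.

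The members lowest in replicate 3 were Rps27l, Rps3a1, Rps19, Rps2 and Rps3. Rps3a1 read 13.89, 13.82 and 13.68 in BALB, 13.97, 13.91 and 13.74 in SKG, 13.97, 13.82 and 13.54 in IL-6-/- and 13.87, 13.80 and 13.79 in IFN-γ-/- cells. The share of the summed deposited intensity taken by the 47 members also differed by replicate number, being highest in replicate 3. It was 2.49, 2.57 and 2.94% in BALB, 2.45, 2.45 and 2.88% in SKG, 2.42, 2.51 and 3.02% in IL-6-/- and 2.59, 2.60 and 3.0% in IFN-γ-/- cells. Replicate 3 had the largest share in every group, and the groups overlapped. The actin 3′ to 5′ ratio was 3.98 in replicate 3 of BALB, 2.63 in SKG, 5.13 in IL-6-/- and 3.81 in IFN-γ-/- cells. In replicates 1 and 2 it was 1.60 to 3.04, and the Gapdh ratio did not share this order in BALB and SKG cells. Summed intensity of the 4 neutrophil markers ran from 46.5 to 392.8 in IL-6-/- and from 100.6 to 240.2 in IFN-γ-/- cells. Camp was highest in replicate 3 of both transfer groups, Ngp and Mpo in that of IL-6-/- cells only and Elane in neither. The part of RNA quality or of other cells in these shifts was not tested.

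**Figure D5:**
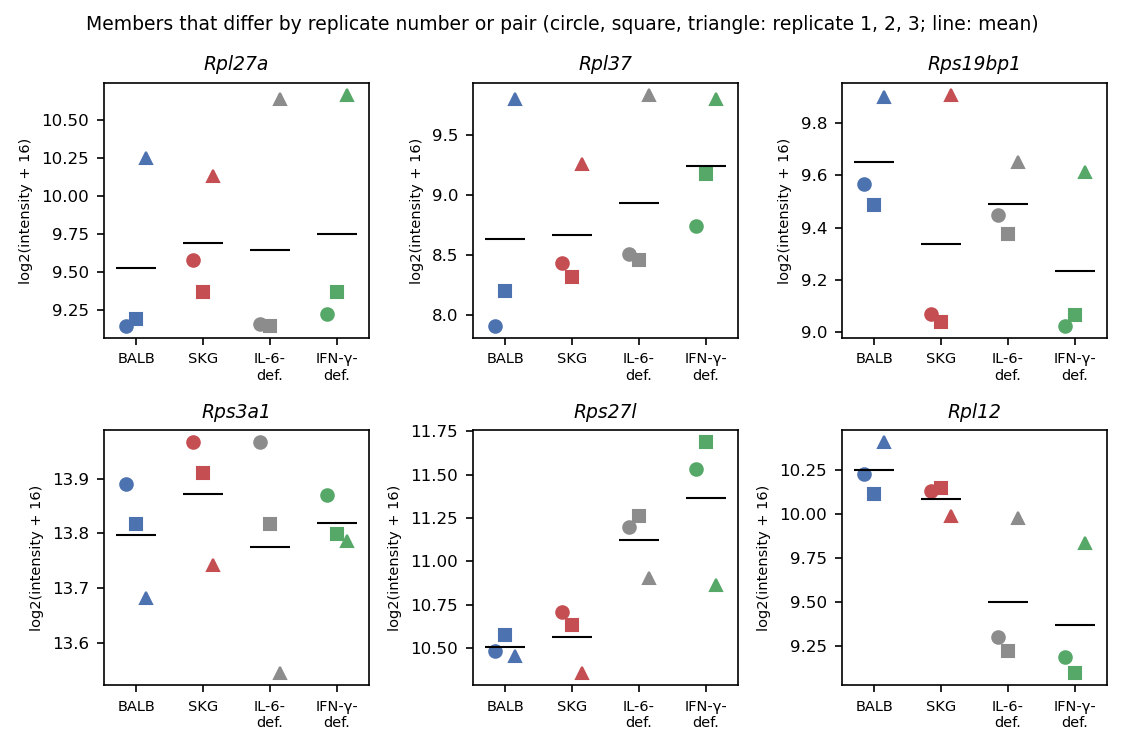
Levels of 6 members by group, as log2(intensity + 16), with 1 symbol per array (circle, square and triangle for replicates 1, 2 and 3), a line at the group mean and an axis range set for each gene. Triangles are highest in every group for Rpl27a, Rpl37 and Rps19bp1 and lowest for Rps3a1 and Rps27l, while Rpl12 and Rps27l separate the SKG and BALB arrays from the transfer arrays.

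The SKG and BALB arrays were last set beside the transfer arrays as a description only, since age, tissue, stimulation, sort and host differ together between them and cannot be told apart. The absolute difference between the means of the 6 and 6 arrays had a median of 0.061 for the members and 0.32 for all genes tested. In Rpl12, a protein of the stalk base, all SKG and BALB arrays (9.99 to 10.41) lay above all transfer arrays (9.09 to 9.98), with means of 10.17 and 9.43. In Rps27l all transfer arrays (10.87 to 11.69) lay above all SKG and BALB arrays (10.35 to 10.71), with means of 11.24 and 10.53. These were the only members of 44 to separate completely, 1 in each direction, where 4.08% and 9.19% of all genes did so.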

How the data were processed

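The authors deposited 1 linear intensity per probe set and array (per the labels, RNeasy total RNA, biotin label by in vitro transcription); the software that made these intensity values is not given in the sources used here. From the deposited intensities, 64 control probe sets of 45101 were dropped, 16 was added, log2 was taken and the 12 arrays were quantile normalized together. The platform annotation named 1 gene for 34945 probe sets, several for 932 and none listed for 9160. The brightest single-gene probe set stood for a gene; genes with a mean over the 6 arrays at or above the 40th percentile of probe sets (level 4.73) were tested with lmFit and trended eBayes in limma 3.58.1 (R 4.3.3), Benjamini-Hochberg adjusted over all tested genes, and the steps were tested on simulated data. Differences are on the log2(intensity + 16) scale, which understates changes of dim genes. The number of arrays limits the precision, which also moves with brightness.

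Same-numbered replicates deviated together (correlations 0.13, 0.20 and 0.33 between SKG and BALB, 0.46, 0.45 and 0.70 between transfer groups), although replicates 1 and 2 also correlated across numbers (0.17 and 0.17, and 0.41 and 0.44) and replicate 3 alone stood apart, so a fit blocked on that number is given where it changes a call. Genes were named by rule: the called members, the members with the largest changes per direction, the smallest p in the difference between comparisons, the 5 brightest and 5 dimmest, a set by role, and up to 5 genes per list. For the list of regulators more than 5 were named. Rps10, Rps28, Rps4x, Rpl41, Rps18 and the replicate 3 members were named after their values were seen, as members without overlap or with a shared order. Rps7 was also named after its values were seen, for its small span. The members and lists were chosen with earlier results of these data known. The alternatives were other constants, filters, normalizations, probe set rules and fits, and leaving out each array.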

Additional observations from a re-analysis of the deposited data

How the results depend on the processing

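The precision is limited by 3 arrays per group, and the bright members lie near the top of the intensity scale. In SKG against BALB, the count of members called lower, 1 as reported, was 0 with no filter, no normalization, trimmed mean scaling or no intensity trend, and 2 with the 60th percentile filter, the median of probe sets or the replicate block; leaving out 1 array gave 0 to 5 (0 without BALB replicate 1, BALB replicate 2, SKG replicate 1 or SKG replicate 2, and 5 without SKG replicate 3), and replicates 1 and 2 only, an alternative chosen after seeing the data, gave 5. The count higher was 0, and leaving out 1 array gave 0 to 1. Over all genes, 1397 of 8630 were called lower with the 60th percentile filter and 1350 of 11108 with the median of probe sets. The median member difference was -0.11 without normalization. Rps20 was reversed, to 0.12, without x_at and s_at probe sets (adjusted p = 0.79). Over its 19 fits Rpl8 was called in 11 and lower in all, from -0.33 to -0.21, with adjusted p from 0.0076 to 0.53. In the transfer comparison the median was -0.060 without normalization and 0.046 with trimmed mean scaling. With replicates 1 and 2 only, 2 members (Rps26 and Rps27l) were called higher, beside 267 of all 12259 genes. In the difference between comparisons, 0 members were called as reported, and leaving out 1 array gave 0 to 1. The median of probe sets gave 1 member, beside 770 of all 10493 genes. With replicates 1 and 2 only there were 5, beside 3768 of 11431, and with the replicate block 3, beside 3106 of 11431. The replicate block changed no other member's call. Over all genes in SKG against BALB, 1130 were higher and 830 lower without normalization, and 2842 and 2201 with replicates 1 and 2 only, against 1904 and 1423 as reported; the transfer counts rose from 8 and 6 to 81 and 113 with the block. The cause of these changes was not tested.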

Other observations

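Probe sets that name several genes, with a ribosomal protein symbol among them, were kept out of the comparisons above. There were 110 on the array, of which 107 were above the floor and 73 had a mean level of 12 or more. For those 73, the SKG minus BALB difference had a median of -0.01, from -0.40 to 0.25, and the IFN-γ-/- minus IL-6-/- difference a median of 0.01, from -0.23 to 0.34. Over all 107 the SKG minus BALB range was wider, from -3.51 to 0.37, with a median of -0.02. The IFN-γ-/- minus IL-6-/- difference of the 107 ran from -0.43 to 0.48. These probe sets can report on pseudogenes or neighbouring genes as well, and no test was made on them.

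Members with several single-gene probe sets did not always give the same sign. Of 100 such probe sets 94 were above the floor, and 19 members had more than 1 of them. The sign of the difference was shared by all probe sets of a member in 13 of the 19 for SKG against BALB and in 4 of the 19 for the transfer comparison. Sizes differed as well. In SKG against BALB, the probe sets of Rps18 ran from -0.30 to 0.34, those of Rps24 from -0.59 to -0.11 and those of Rps10 from -0.59 to -0.18.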
